A study of Mus musculus with 6 samples.

Results

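The messenger RNAs of RNA-binding and splicing factors were compared between liver tumours and normal mouse liver, and 35 array probes of 30 genes were found. A probe was a member when the authors' table of normalised values listed it under an mRNA accession and the symbol of that accession began with Hnrn, Srsf, Srrm, Rbm, Pabp, Snrp, Sf3, Prpf, Ddx, Dhx, Celf, Mbnl, Clk, Cpsf, Cstf, Tra2, Eif4 or Igf2bp. The table held 2280 mRNA probes among 4197 distinct probes, and 2239 of the mRNA probes could be given a symbol, 2114 genes in all. It was preselected by the authors on the same comparison of tumour with normal liver, so that every member had already been picked for a difference of at least 2-fold.

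RNA-binding proteins accompany an mRNA from transcription to decay. The snRNPs and their partners cut out introns, and hnRNP proteins, SR-related proteins and the Rbm and Celf families influence which exons are kept. Cleavage factors and poly(A)-binding proteins form and protect the 3′ end, DEAD-box helicases (Ddx) remodel RNA in the nucleus, nucleolus and cytoplasm, and the eIF4 factors bring the ribosome to the mRNA cap. Many of these factors bind their own transcripts and alter how these are spliced, and several are deregulated in liver cancer.

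The question was how transcripts differ between hepatocellular carcinoma (HCC) with active Wnt/β-catenin signalling and normal liver. Liver RNA of mice aged 12 months on the C57Bl/6 background was hybridised to 6 single-colour lncRNA arrays that also carry mRNA probes. The Apcfl/fl group (3 arrays, liver with HCC) was homozygous for Apc580s, a floxed hypomorphic allele of Apc, which restrains β-catenin, and the Apc+/+ group (3 arrays) was liver without tumour. The submitters count 3 mice per group, and no Cre driver was named for them.

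The first pair of tumour arrays, Apcfl/fl replicates 1 and 2, was closer than the technical noise (mean chi-square 0.774 per probe, against 1.99 to 15.1 for the other pairs within a group). Their mean was used as 1 sample, so 2 tumour samples were set against 3 normal livers. Row 1 of the slide held the tumour arrays and Apc+/+ replicate 1, and row 2 held the other two normal livers. Between 50.8% and 82.8% of probes were well above background, with the lowest share on Apc+/+ replicate 2. Levels per array are given below as the authors' normalised log2 signal. Log2 changes, standard errors (SE) and limma adjusted p-values come from a fit of all 45640 tested probes of the scanner files, whose scale lies up to 0.65 below the authors' for the members. Signals of different probes were not compared as levels, because probes differ in efficiency.

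Of the 35 member probes, 13 were higher and 22 were lower in Apcfl/fl than in Apc+/+. This was 62.9% lower, against 42.7% of all mRNA probes in the table. The smallest difference between the means of 3 arrays was -1.04, for Ddx6, next to the 2-fold limit of the table, and values just outside that limit are not in the table. The median size of the difference was 1.31 for the members and 1.56 for all mRNA probes of the table. The signed median was -1.14 for the members and 1.13 for the mRNA probes of the table. Since the table holds differences of at least 2-fold, such a median lies on the side with more probes, and nothing is read from its size. It was 0.06 for all tested probes in the fit. On every member probe the 3 Apcfl/fl arrays lay all above or all below the 3 Apc+/+ arrays. The same held for 99.9% of the mRNA probes in the table and for 33.8% of all tested probes, and nothing is read from it.

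With an adjusted p below 0.05 and a fold change of at least 2, the call used here, 5 member probes of 4 genes passed. The share was 1.92% over all tested probes, and 19.4% of the listed mRNA probes passed. Pabpn1, Rbm5 and both probes of Eif4a1 fell, a direction in which 0.896% of all tested probes and 7.32% of the listed mRNA probes were called. Rbm28 rose, a direction in which 1.03% and 12.1% were called. At the threshold of the study's methods, p at most 0.05 before adjustment and 2-fold, 29 members passed, beside 11.2% of all tested probes and 90.2% of the mRNA probes in the table. With the 6 arrays as 6 samples, 25 members passed the adjusted threshold, beside 7.54% of all tested probes and 68.9% of the mRNA probes in the table.

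**Figure D1:**
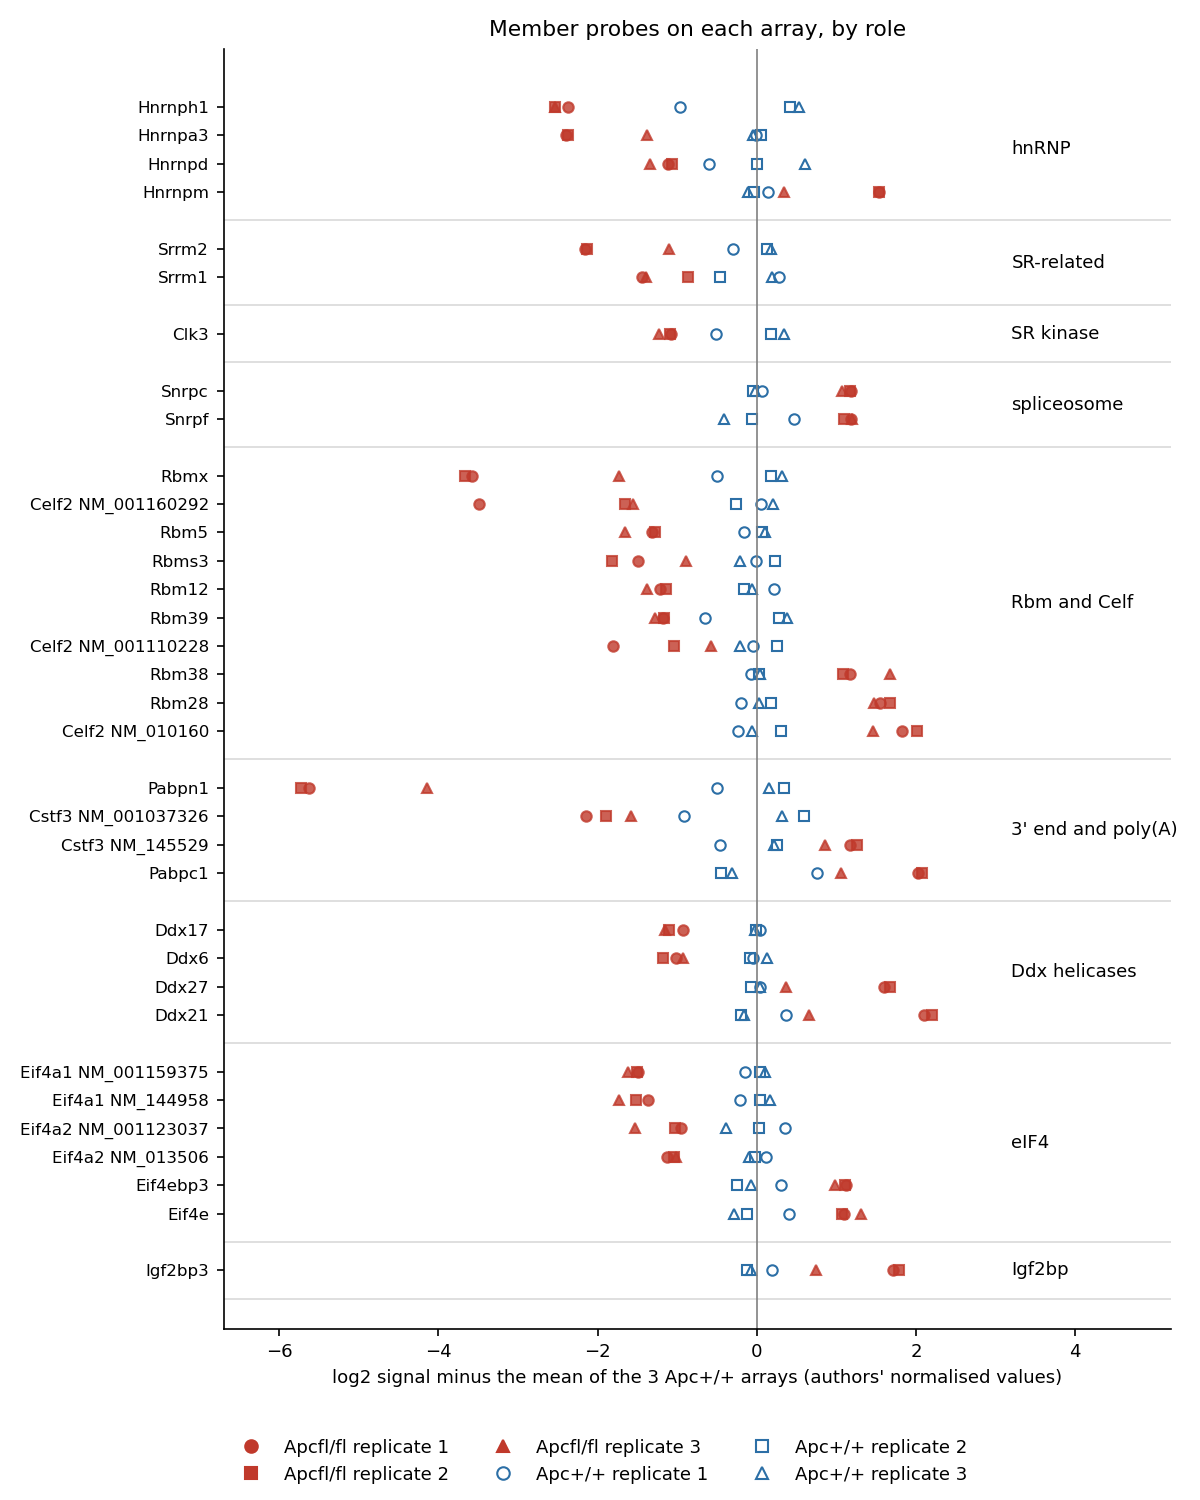
Log2 signal of 34 member probes on each array (x axis) minus the probe's mean over the 3 Apc+/+ arrays, from the authors' normalised values, with probes ordered by role (y axis). Filled red symbols are Apcfl/fl and open blue symbols are Apc+/+ arrays; 21 probes lie to the left of 0 and 13 to the right, Pabpn1 lies farthest left, and Rbmx, Pabpn1 and Ddx21 show Apcfl/fl replicate 3 apart from replicates 1 and 2.

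The 12 symbol starts with a member took in between 1 and 7 genes each. The Rbm start had 7 genes, Hnrn, Ddx and Eif4 had 4 each, Srrm, Pabp and Snrp had 2 each, and the other starts had 1 each. RefSeq lists 226 protein-coding mouse genes with the 18 starts. No gene of the Srsf, Sf3, Dhx, Mbnl, Cpsf or Tra2 starts was listed, and since a probe is named only where the table lists it, the other genes of these families were not analysed here. Well above background on all 6 arrays were 33 members. Exceptions were the Celf2 probes NM_001110228 and NM_001160292. For these, Srrm1, Rbms3 and the Eif4a2 probe NM_001123037, the lower group mean lay below the brightest negative-control probe (5.50 on the scale of the fit), where the size of a change is uncertain.

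Pabpn1, the nuclear poly(A)-binding protein that sets tail length and takes part in the choice of poly(A) sites, showed the largest difference of all members. Its signal was 8.30, 8.20 and 9.80 on Apcfl/fl replicates 1, 2 and 3, and 13.44, 14.28 and 14.09 on Apc+/+ replicates 1, 2 and 3. The groups lay far apart, although Apcfl/fl replicate 3 was higher than the other two tumour arrays. Pabpn1 fell by 5.02 on the log2 scale (SE 0.51, limma adjusted p = 0.0264), a signal 32.4-fold lower. In the table this was the third-largest fall among the mRNA probes. Both group means were above the negative controls. The log2 change was between -5.73 and -4.50 under all alternatives, but the adjusted p rose to 0.213 with slide row as a block. It was 0.0755, 0.101 and 0.165 when Apc+/+ replicate 1, 2 or 3 was left out. Leaving out 1 of these arrays also left at most 1 of all 45640 probes past the threshold, and the block left 0.

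The sequence around the Pabpn1 start is shown because this gene carries the largest difference. It is the RefSeq promoter of build GRCm38.p6 on the plus strand, from 250 bases before the start to the first 30 bases of the transcript, at chr14:54893893-54894172. None of the motif letters searched below occur in it, so there are no capitals.
Pabpn1 promoter: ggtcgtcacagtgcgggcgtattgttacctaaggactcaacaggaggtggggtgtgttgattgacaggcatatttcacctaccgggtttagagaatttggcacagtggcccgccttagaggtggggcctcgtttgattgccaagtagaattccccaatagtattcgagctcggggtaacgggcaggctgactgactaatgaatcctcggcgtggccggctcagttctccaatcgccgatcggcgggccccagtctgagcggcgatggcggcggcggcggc

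Pabpc1, the cytoplasmic poly(A)-binding protein that bridges the tail to translation, gave 11.95, 11.99 and 10.98 in Apcfl/fl and 10.69, 9.47 and 9.61 in Apc+/+. The nearest arrays of the groups, Apcfl/fl replicate 3 and Apc+/+ replicate 1, were 0.29 apart. Its log2 change was 1.57 (SE 0.51, limma adjusted p = 0.201). The nuclear and the cytoplasmic poly(A)-binding protein thus had opposite signs, and of these only Pabpn1 passed. Close copies of Pabpc1 exist, and its probe may read them as well.

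**Figure D2:**
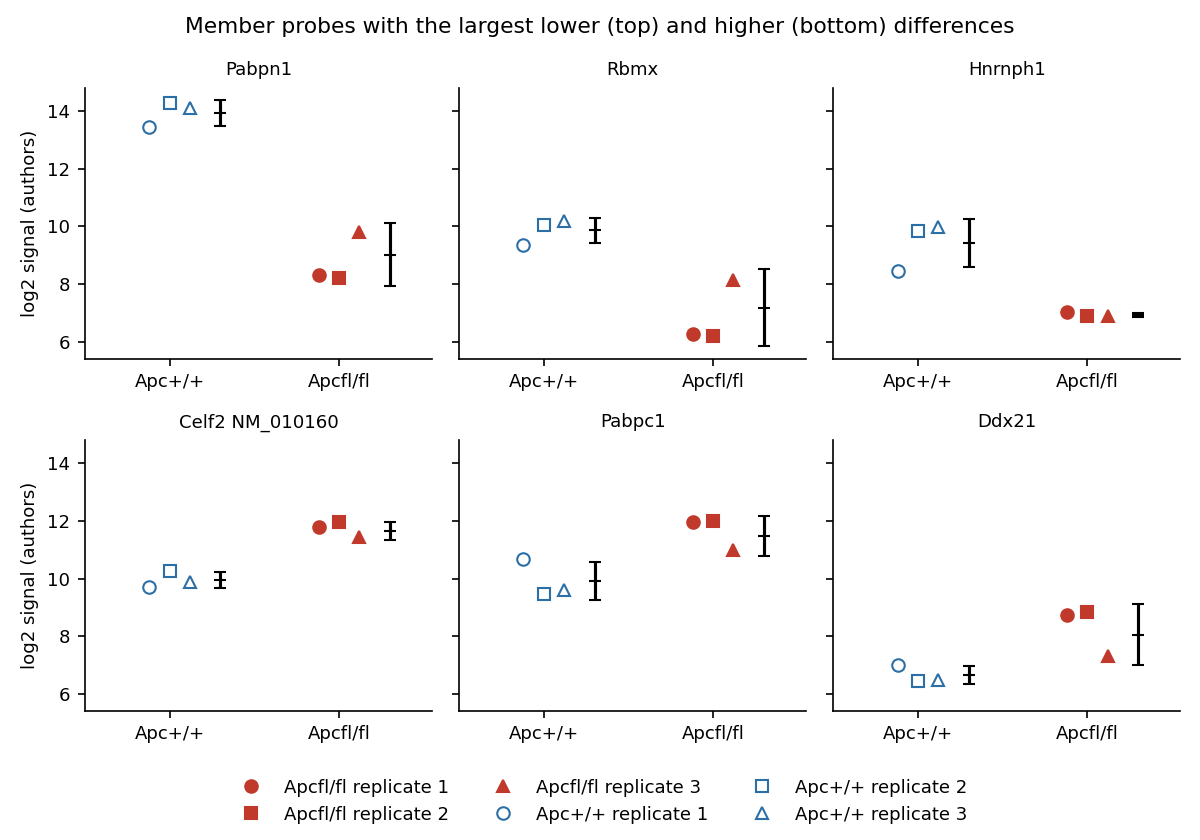
Normalised log2 signal (y axis, authors' values) of the 3 member probes with the largest lower differences, Pabpn1, Rbmx and Hnrnph1, and the 3 with the largest higher differences, Celf2 NM_010160, Pabpc1 and Ddx21, by genotype (x axis); bars are mean and SD over samples, with Apcfl/fl replicates 1 and 2 averaged to 1 sample. No probe has overlapping groups, and Apcfl/fl replicate 3 minus Apc+/+ replicate 1, the nearest arrays, is -3.64 for Pabpn1 and 0.29 for Ddx21.

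Cstf3 encodes a subunit of the cleavage stimulation factor, which acts with the polyadenylation machinery at the mRNA 3′ end. It had a pair of probes with opposite signs. The probe for NM_001037326 gave 6.22, 6.47 and 6.78 in Apcfl/fl and 7.45, 8.96 and 8.69 in Apc+/+. The probe for NM_145529 gave 9.23, 9.32 and 8.92 in Apcfl/fl and 7.59, 8.31 and 8.27 in Apc+/+. On both probes Apc+/+ replicate 1 was the lowest normal liver. The log2 changes were -1.67 (SE 0.47, limma adjusted p = 0.158) and 0.94 (SE 0.29, limma adjusted p = 0.187), and neither passed.

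The difference between the Cstf3 probes within each array takes out what both probes share. NM_001037326 minus NM_145529 was -3.02, -2.85 and -2.14 in Apcfl/fl and -0.14, 0.65 and 0.42 in Apc+/+. The mean was -2.54 ± 0.56 (SD, n = 2) in Apcfl/fl and 0.31 ± 0.41 (SD, n = 3) in Apc+/+, a shift of -2.84 with no overlap. Because the table admitted only probes with a difference, this shift is a description. RefSeq lists a single start for Cstf3, so both accessions are shown with the same promoter, on the plus strand at chr2:104590234-104590513 of GRCm38.p6, again without motif letters.
Cstf3 promoter: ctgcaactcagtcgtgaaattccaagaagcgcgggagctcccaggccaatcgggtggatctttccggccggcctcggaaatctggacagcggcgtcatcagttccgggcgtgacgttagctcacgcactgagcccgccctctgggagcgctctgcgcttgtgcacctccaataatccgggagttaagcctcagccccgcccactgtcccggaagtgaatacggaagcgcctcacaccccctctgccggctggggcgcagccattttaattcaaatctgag

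Celf2, a CUG-binding regulator of splicing and mRNA stability, had 3 probes. The probe for NM_010160 was 11.79, 11.97 and 11.42 in Apcfl/fl and 9.72, 10.26 and 9.90 in Apc+/+, all tumour arrays above all normal livers. Its log2 change was 1.73 (SE 0.27, limma adjusted p = 0.0549), just short of the threshold. The probe for NM_001160292 was lower, at 2.55, 4.39 and 4.48 against 6.09, 5.78 and 6.25, with a log2 change of -1.96 (SE 0.32, limma adjusted p = 0.0585). The probe for NM_001110228 was also lower, at 4.16, 4.93 and 5.39 against 5.92, 6.23 and 5.76, with a log2 change of -0.99 (SE 0.33, limma adjusted p = 0.207). These lower probes are the 2 members that were not well above background on every array, and both Apcfl/fl means lay below the negative controls. With normexp background correction the log2 changes of NM_001160292 and NM_001110228 were -0.60 and -0.33.

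Within each array, the Celf2 probe NM_010160 minus NM_001160292 was 9.24, 7.58 and 6.94 in Apcfl/fl and 3.63, 4.49 and 3.65 in Apc+/+. The size of this shift is uncertain, since the lower probe was below the negative controls in Apcfl/fl. Celf2 spans several RefSeq starts, 5 in the promoter table, spread over 674.5 kb of chromosome 2 on the minus strand. They are shown because the 3 accessions went different ways; which accession belongs to which start was not determined here. Each line gives 60 bases of GRCm38.p6 around a start, 5′ to 3′ on the minus strand, with the first 10 bases of the transcript in capitals.
Celf2 start at chr2:7396169-7396228: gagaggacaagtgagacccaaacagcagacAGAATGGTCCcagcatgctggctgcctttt
Celf2 start at chr2:7395971-7396030: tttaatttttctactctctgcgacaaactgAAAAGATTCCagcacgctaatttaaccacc
Celf2 start at chr2:7081273-7081332: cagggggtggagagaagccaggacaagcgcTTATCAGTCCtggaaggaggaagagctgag
Celf2 start at chr2:6872006-6872065: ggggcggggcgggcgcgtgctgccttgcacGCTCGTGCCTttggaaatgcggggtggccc
Celf2 start at chr2:6721633-6721692: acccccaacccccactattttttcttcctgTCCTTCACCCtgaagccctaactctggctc

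Eif4a1 and Eif4a2, the helicases that unwind the mRNA cap region within eIF4F, each had a pair of probes that went the same way. Eif4a1 NM_144958 was 13.18, 13.03 and 12.81 in Apcfl/fl and 14.33, 14.58 and 14.71 in Apc+/+. Eif4a1 NM_001159375 was 12.64, 12.62 and 12.50 against 13.98, 14.17 and 14.23. All tumour arrays were more than 1 log2 unit below all normal livers on both probes. Both fell, with log2 changes of -1.66 (SE 0.23, limma adjusted p = 0.0455) and -1.64 (SE 0.19, limma adjusted p = 0.0354), signals 3.17-fold and 3.11-fold lower. The difference between the probes was 0.39 ± 0.12 (SD, n = 2) in Apcfl/fl and 0.41 ± 0.06 (SD, n = 3) in Apc+/+, with overlapping arrays.

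Eif4a2 NM_013506 was 10.83, 10.91 and 10.94 in Apcfl/fl and 12.06, 11.93 and 11.85 in Apc+/+, with a log2 change of -1.09 (SE 0.19, limma adjusted p = 0.0637). Eif4a2 NM_001123037 was 5.52, 5.44 and 4.94 against 6.82, 6.50 and 6.09, with a log2 change of -1.23 (SE 0.31, limma adjusted p = 0.126), and of -0.47 with normexp background correction. The difference between the Eif4a2 probes overlapped between the groups. Both genes host small nucleolar RNAs in their annotated span, and a probe for Eif4a1 may also read close copies of the gene. Other members whose span overlaps a protein-coding gene are Rbm12 (Cpne1), Srrm2 (Elob), Ddx17 (Kdelr3), Snrpf (Ccdc38), Igf2bp3 (Malsu1) and Hnrnpd, and Eif4a2 itself overlaps Rfc4.

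**Figure D3:**
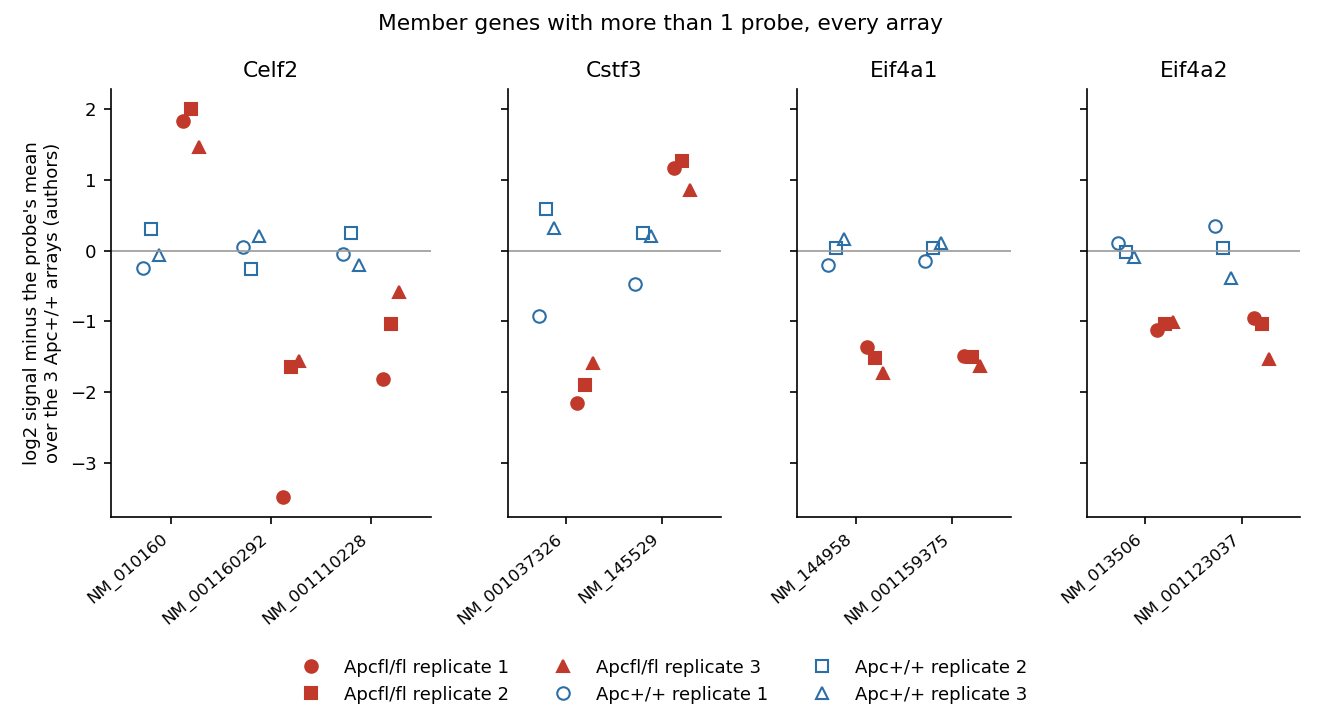
Log2 signal of each probe minus its own mean over the 3 Apc+/+ arrays (y axis, authors' values) for the 4 member genes with more than 1 probe, by accession (x axis); filled red symbols are Apcfl/fl and open blue symbols are Apc+/+ arrays. For Celf2 and Cstf3 the probes of 1 gene lie on opposite sides of 0, and for Eif4a1 and Eif4a2 they lie on the same side.

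The Eif4a1 promoter is shown because both of its probes fell and because it was the 1 member promoter with both motifs searched, described below. It lies on the minus strand at chr11:69672394-69672673 of GRCm38.p6. Capitals mark an E-box and, nearer the start, a TCF/LEF match on the opposite strand.
Eif4a1 promoter: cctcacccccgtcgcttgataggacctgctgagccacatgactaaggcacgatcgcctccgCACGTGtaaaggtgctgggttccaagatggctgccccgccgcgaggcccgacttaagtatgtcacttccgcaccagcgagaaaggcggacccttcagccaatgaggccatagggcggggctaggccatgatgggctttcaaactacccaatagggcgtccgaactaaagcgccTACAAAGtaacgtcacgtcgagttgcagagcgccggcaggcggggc

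The other members of the eIF4 group were higher. Eif4e, the cap-binding protein, ranged from 9.95 to 10.19 in Apcfl/fl and from 8.59 to 9.28 in Apc+/+, with a log2 change of 1.13 (limma adjusted p = 0.111). Eif4ebp3, which binds eIF4E and keeps it from the rest of eIF4F, ranged from 8.47 to 8.60 against 7.24 to 7.80, with a log2 change of 0.95 (limma adjusted p = 0.122). The group therefore held 4 lower probes, all of the helicases, and 2 higher probes, of the cap-binding protein and its inhibitor, and of these only the Eif4a1 probes passed.

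Among hnRNP genes, which coat nascent transcripts, 3 of 4 probes were lower. Hnrnph1, which binds G-rich stretches, was 7.05, 6.90 and 6.89 in Apcfl/fl and 8.47, 9.85 and 9.97 in Apc+/+. The tumour arrays were close together, and Apc+/+ replicate 1 lay more than 1 log2 unit below the other normal livers. The log2 change was -2.30 (SE 0.48, limma adjusted p = 0.0895), and -1.41 with slide row as a block. Hnrnpa3 was 7.91, 7.94 and 8.92 against 10.29, 10.36 and 10.26, where the normal livers were nearly level. Its log2 change was -1.77 (SE 0.31, limma adjusted p = 0.0656), and close copies of the gene may add to this probe. Hnrnpd (AUF1), which binds AU-rich elements, ranged from 6.47 to 6.75 against 7.21 to 8.42. Hnrnpm was higher, at 9.17, 9.17 and 7.99 against 7.78, 7.60 and 7.53, and its nearest arrays were 0.20 apart.

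Both SR-related genes and the SR protein kinase were lower. Srrm2, a scaffold of nuclear speckles, was 12.49, 12.52 and 13.54 in Apcfl/fl and 14.34, 14.77 and 14.82 in Apc+/+. Apcfl/fl replicate 3 lay between the other tumour arrays and the normal livers, and the log2 change was -1.70 (SE 0.39, limma adjusted p = 0.109). Srrm1, a splicing coactivator, ranged from 5.64 to 6.22 against 6.62 to 7.36. Clk3, a kinase that phosphorylates SR proteins, was 11.02, 11.01 and 10.88 against 11.59, 12.28 and 12.44, with a log2 change of -1.22 (SE 0.33, limma adjusted p = 0.145). With slide row as a block the Clk3 change was -0.67.

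Both genes of snRNP proteins were higher, and neither passed. Snrpc, the U1-C protein of the U1 snRNP, was 14.53, 14.52 and 14.42 in Apcfl/fl and 13.42, 13.30 and 13.33 in Apc+/+. Arrays within a group differed by little, and the log2 change was 1.17 (SE 0.18, limma adjusted p = 0.0549). Snrpf, the Sm ring protein F, ranged from 7.93 to 8.03 against 6.43 to 7.31, with a log2 change of 1.08 (limma adjusted p = 0.149), and of 0.64 with slide row as a block.

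In the Rbm genes 5 of 7 probes were lower. Rbmx, the X-linked hnRNP G, had the second-largest difference of the members, at 6.28, 6.20 and 8.13 in Apcfl/fl and 9.36, 10.05 and 10.18 in Apc+/+. Apcfl/fl replicate 3 was nearly 2 log2 units above the other tumour arrays, and the log2 change of -2.49 (SE 0.59, limma adjusted p = 0.114) did not pass. Close copies of Rbmx exist that its probe may read. Rbm5, which regulates the splicing of apoptosis genes, was 12.57, 12.60 and 12.23 against 13.72, 13.95 and 13.99, with both groups tight. It fell by 1.56 on the log2 scale (SE 0.22, limma adjusted p = 0.0481), 2.95-fold lower. Rbm39, a splicing factor and coactivator, ranged from 12.18 to 12.29 against 12.80 to 13.83, Rbm12 from 8.83 to 9.07 against 10.06 to 10.42, and Rbms3 from 5.12 to 6.05 against 6.71 to 7.16.

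Rbm28 and Rbm38 were the higher Rbm genes. Rbm28, a nucleolar protein of ribosome assembly, was 9.74, 9.86 and 9.67 in Apcfl/fl and 7.99, 8.36 and 8.22 in Apc+/+. The nearest arrays of the groups were more than 1 log2 unit apart. It rose by 1.42 (SE 0.20, limma adjusted p = 0.0483), a signal 2.67-fold higher. Rbm38, a p53 target that controls mRNA stability, ranged from 11.49 to 12.08 against 10.33 to 10.45, with a log2 change of 1.46 (limma adjusted p = 0.0603).

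The calls for Rbm5, Rbm28 and Eif4a1, like that for Pabpn1, ended when any 1 Apc+/+ array was left out or slide row was taken as a block. No member then passed, and at most 1 of all tested probes did. At an unadjusted limma p under 0.05 the count without 1 Apc+/+ array was 28 to 31 members, beside 19.5%, 12.9% and 12.7% of all tested probes without replicates 1, 2 and 3 and 79.6% to 87.2% of the mRNA probes in the table, which had been preselected by p on the same arrays. Without Apcfl/fl replicate 1 or 2 the members past the threshold numbered 6 and 3. The shares beside them were 2.13% and 1.68% of all tested probes and 21.2% and 16.8% of the mRNA probes in the table. Rbm28 and Eif4a1 NM_144958 were lost without replicate 2. Without Apcfl/fl replicate 3 the tumour group held 1 sample, the mean of replicates 1 and 2, so no calls are given for that fit. With the block the log2 change was -1.39 for Rbm5 (limma adjusted p = 0.265), 1.60 for Rbm28 (0.212), and -1.44 (0.251) and -1.50 (0.222) for the Eif4a1 probes NM_144958 and NM_001159375.

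Among the DEAD-box helicases 2 probes were higher and 2 were lower. Ddx21, which acts in the transcription and processing of ribosomal RNA, was 8.75, 8.85 and 7.31 in Apcfl/fl and 7.01, 6.45 and 6.48 in Apc+/+. Apcfl/fl replicate 3 was nearer to the normal livers than to the other tumour arrays, and the log2 change was 1.30 (SE 0.46, limma adjusted p = 0.235), and 0.86 with normexp background correction. Ddx27, also a nucleolar helicase, showed the same order, at 8.90, 8.98 and 7.67 against 7.34, 7.23 and 7.35. Ddx17, a coregulator of transcription and splicing, was 10.69, 10.51 and 10.46 against 11.65, 11.61 and 11.58. Its arrays were close within each group, with a log2 change of -1.13 (SE 0.18, limma adjusted p = 0.0575). Ddx6, a component of P-bodies that represses translation and aids decay, ranged from 6.04 to 6.30 against 7.14 to 7.36.

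Igf2bp3, an oncofetal protein that binds and stabilises mRNAs, was 8.92, 8.996 and 7.95 in Apcfl/fl and 7.40, 7.08 and 7.13 in Apc+/+. Apcfl/fl replicate 3 was again the tumour array nearest to the normal livers. The log2 change was 1.14 (SE 0.33, limma adjusted p = 0.160). Its promoter, on the minus strand at chr6:49214925-49215204 of GRCm38.p6, is shown as an example with a pair of E-boxes, in capitals. A promoter of Eif4e, not shown, also holds 2 E-boxes.
Igf2bp3 promoter: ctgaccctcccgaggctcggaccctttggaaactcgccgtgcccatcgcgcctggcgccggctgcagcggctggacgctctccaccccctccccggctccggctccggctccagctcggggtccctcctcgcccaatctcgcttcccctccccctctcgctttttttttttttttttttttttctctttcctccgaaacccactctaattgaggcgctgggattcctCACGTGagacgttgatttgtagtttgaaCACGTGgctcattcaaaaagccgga

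Promoters of the members were searched for letters bound by β-catenin's partners and by MYC-type factors, since the tumours carry a Wnt-pathway allele. RefSeq promoters of 300 bases, 250 before and 50 after a start, were found for 26 of the 30 genes, 39 promoters in all. The TCF/LEF letters, CTTTG followed by A or T at both of the next positions, on either strand, were in 6 of the 39 (15.4%) and in 16.9% of all 32851 promoters. The E-box CACGTG, the same on both strands and unable to overlap the TCF/LEF letters, was in 6 of the 39 (15.4%) and in 7.15% of all promoters. Some genes have several promoters. Counted by gene, the TCF/LEF letters were in 6 of 26 member genes and in 5121 of all 27025 genes. The E-box was in 6 of the 26 and in 2187 of the 27025. Genes with higher probes only had an E-box in 3 of 10 promoters, and genes with lower probes only in 3 of 23. The E-box promoters belonged to Eif4a1, Eif4e, Hnrnpa3, Hnrnpd, Hnrnpm and Igf2bp3. The TCF/LEF promoters belonged to Celf2, Ddx17, Ddx27, Eif4a1, Rbm38 and Rbms3. A match is a run of letters, and no binding was measured.

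The members were not equally distinct on all arrays. Apcfl/fl replicate 3 was nearer to the normal livers than replicates 1 and 2, by more than these differed, on 19 of 35 members (54.3%), and on 57.1% of all mRNA probes in the table. This held for 10 of the 13 higher members, Ddx21, Ddx27, Hnrnpm, Igf2bp3 and Pabpc1 among them, and for 9 of the 22 lower members. Replicate 3 lay farther from the normal livers by the same measure on 10 members (28.6%), 8 of them lower and 2 higher, and on 32.9% of the mRNA probes in the table. Apc+/+ replicate 1 was nearer to the tumours than replicates 2 and 3, by more than these differed, on 20 members (57.1%) and on 46.6% of the mRNA probes in the table, and farther from them on 7 members and 25.8% of those probes.

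Apc+/+ replicate 1 is also the normal liver in the slide row of the tumour arrays. Within that row 23 of the 35 members had a difference of at least 2-fold. The share over other probes was not computed, so nothing about the members is read from this count. The signs were fixed by groups that do not overlap. The median size of the difference was 1.26 against the control of row 1 and 1.41 against the controls of row 2. Pabpn1 differed by -4.41 within row 1 and by -5.16 against row 2. Cstf3 NM_001037326 differed by -0.88 and -2.26, Rbm39 by -0.57 and -1.55, and Pabpc1 by 0.79 and 1.93. In the fit with slide row as a block, the log2 changes of these 3 probes were -0.83, -0.60 and 0.83, and that of Hnrnpd was -0.58. Slide row and the difference between normal livers cannot be told apart with 1 control in row 1.

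**Figure D4:**
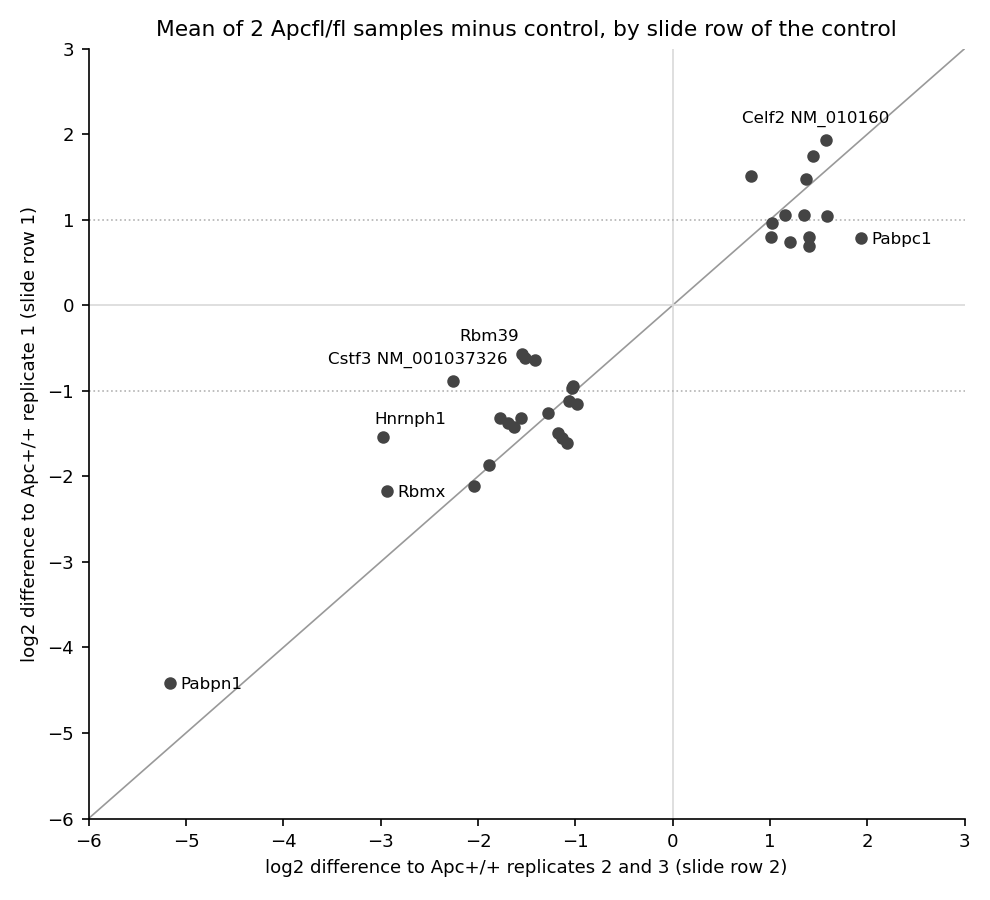
Mean of the 2 Apcfl/fl samples minus Apc+/+ replicate 1, in the same slide row (y axis, log2), against the same mean minus Apc+/+ replicates 2 and 3, in the other row (x axis, log2), for 34 member probes; the diagonal marks equal differences and dotted lines mark 2-fold. Of the points, 12 lie between the dotted lines, a count without a share over other probes beside it. The shared sign on both axes follows from groups that do not overlap.

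Other genes of RNA processing were taken from a list of 112 splicing, 3′ end, decay and translation factors outside the symbol starts. The table held 11 of them, of which 10 were lower and 1, the spliceosome protein Plrg1, was higher. Khdrbs3, a STAR-family splicing regulator, was 5.25, 5.08 and 5.30 in Apcfl/fl and 9.30, 8.66 and 8.96 in Apc+/+. It fell by 3.52 (SE 0.24, limma adjusted p = 0.0163) and was the 1 gene of this list past the threshold, beside 1.92% of all tested probes. Its Apcfl/fl level was below the negative controls, so the size of the fall is uncertain, and it was -2.12 with normexp background correction. Its call ended without any 1 Apc+/+ array and with slide row as a block (limma adjusted p = 0.144). The other lower genes had log2 changes between -1.81 (Khdrbs2) and -1.02 (Zrsr2), and included the splicing regulators Rbfox3 and Esrp2, the 3′ splice site factor U2af1, the SR protein kinase Srpk2, and G3bp2 and Elavl4. With slide row as a block the change was -0.45 for Zrsr2 and -0.63 for Srpk2 (-1.56 without it), and with normexp it was -0.96 for Khdrbs2. With the 6 arrays as 6 samples, 9 of the 11 passed, beside the 7.54% of all tested probes and 68.9% of the listed mRNA probes given above. Members and these genes were both listed after preselection, so the shares say nothing about genes outside the table.

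In bulk tissue, fewer cells of a type and less RNA per cell cannot be told apart. Markers of cell types were seen only where the table listed them. Since the table was preselected on this comparison, each marker seen had to differ between the groups, and nothing is read from that. Among hepatocyte markers 3 of 7 were in the table (Apoa1, Cebpa, Cps1), all lower, with a log2 of the summed signal of 14.9 to 16.0 in Apcfl/fl and 17.0 to 17.7 in Apc+/+. The other markers of each list have no named probe here. The values that follow are likewise the log2 of the signal summed over the listed probes. Among markers of dividing cells 4 of 7 were in the table, all higher, at 12.8 to 13.2 against 8.78 to 8.99. Among leukocyte markers 2 of 7 (Cd74, Adgre1) were higher, at 12.4 to 13.8 against 11.2 to 11.8. The cholangiocyte marker Spp1, 1 of 5, was higher on all 5 of its probes, whose sum was 13.8 to 15.3 against 9.12 to 10.1. The endothelial marker Pecam1 (1 of 4, 5.46 to 6.35 against 7.34 to 7.69) and the stellate marker Lrat (1 of 6, 5.01 to 6.48 against 7.22 to 7.59) were lower. The part of cell make-up in the differences of the RNA-binding genes was not tested. Apc itself was not reported here, because no probe was named for it.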

How the data were processed

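Cy3-labelled cRNA of 6 liver samples was hybridised to the mouse LncRNA Array V2.0 (Arraystar). The authors extracted the scans with Agilent Feature Extraction 11.0.1.1, and the deposited scanner files give processed intensity per spot, background subtracted and not normalised between arrays. The authors' deposited table holds log2 values, quantile normalised in GeneSpring, for the probes they had called at 2-fold and p of at most 0.05. It was used for levels per array, and its symbols came from RefSeq (GRCm38.p6), where 41 accessions found no match. Its columns of fold changes and p-values were not used.

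Of 62513 spots per file, controls, flagged outliers and 1200 spots of 20 negative-control probes were left out. Log2 intensities were averaged per probe and quantile normalised over 59631 probes, and 45640 probes well above background on at least 3 arrays were tested with limma 3.58.1 in R 4.3.3 (lmFit, eBayes). The test was two-sided without covariates, changes are Apcfl/fl minus Apc+/+, and limma p-values were adjusted by Benjamini-Hochberg over all tested probes. Values after ± are SD. Apcfl/fl replicates 1 and 2, with a mean chi-square below 1, were averaged to 1 sample. The submitters count 3 mice per group, and why this pair was so close was not tested. The number of arrays limits the precision. The fit was tested on simulated data.

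Members and lists were chosen with earlier results of these data known. The values of 1 member and of 1 gene of the further list are not reported here. Values in full are given for Pabpn1, for genes with more than 1 probe, for the 3 largest differences each way, for probes past the threshold and for the brightest probe of each role. Alternatives changed scaling, background correction, filter, variance model, averaging of arrays, block, test and samples.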

Additional observations from a re-analysis of the deposited data

How the results depend on the processing

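The count of calls moved among the 17 alternatives, in the members as over all tested probes. The members' signs are no sign of stability, because the table was preselected on this comparison. Against 5 member probes past the adjusted threshold and 1 of the further list of RNA-processing genes (1.92% of all tested probes), limma gave 13 and 5 with normexp background correction (3.62%), 14 and 5 for probes well above background on all 6 arrays (6.62%), 14 and 4 with a variance trend and robust fit (4.16%), 25 and 9 with 6 arrays as 6 samples (7.54%), and 34 and 11 on the authors' columns (94.4%), where only preselected probes were adjusted for. The mRNA probes in the table were preselected like the members, and 19.4% of them passed in the main fit. In the same order as above, 36.5%, 50.2%, 40%, 68.9% and 94.2% of them passed in these alternatives. The count of members was 2 with 75th percentile scaling (1.6% of all tested probes and 16.8% of the mRNA probes in the table). It was 1 without a filter on dim probes (0.465% and 6.01%). The methods' t-test was run here on 2 against 3 samples and adjusted over all tested probes. The study compared 3 arrays per group, and its methods name no adjustment. The counts of members and of the further list were both 0 when Apc+/+ replicates 2 and 3 were averaged too, when slide row was a block, and by the methods' t-test. Of all 45640 tested probes, 0, 0 and 3 (0.00657%) passed in these settings, so the loss was not particular to the members. At an unadjusted p under 0.05 the 2 limma fits of these settings gave 28 and 20 members and 9 and 6 genes of the further list. The shares beside them were 13.6% and 11.3% of all tested probes and 83.8% and 64.1% of the mRNA probes in the table. The methods' t-test gave 26 and 8, beside 16% and 71.9%. With slide row as a block, 18 members in place of 29 passed the methods' threshold, and the share over other probes was not computed. At an unadjusted limma p under 0.05, without the fold limit, 20 members in place of 33 passed. The block also lowered the share of probes with an unadjusted limma p under 0.05. It fell from 97.4% to 64.1% of the mRNA probes in the table and from 18.2% to 11.3% of all tested probes. Pabpn1 was not called in the settings with counts of 0, at -4.89 (limma adjusted p = 0.110), -4.50 (limma adjusted p = 0.213) and -5.02 (adjusted p = 0.142 by the methods' t-test). Leaving out 1 array gave 0 to 6 members, 0 to 1 genes of the further list and a Pabpn1 change between -5.73 and -4.84. These counts leave aside the fit without Apcfl/fl replicate 3, which had 1 tumour sample and gave the Pabpn1 change of -5.73. Replicate numbers are shared between the groups, and the main fit did not treat them as pairs. Correlations of deviations between arrays of the same number were small (0.06, -0.07 and 0.04). Of the 3 Apcfl/fl arrays, 2 correlated best with the Apc+/+ array of the same number. With the replicate block on 6 arrays, 4 members and 2 genes of the further list passed (2.36%). These members were Pabpn1 (adjusted p = 0.0283 in limma), Rbm28, Eif4a1 NM_001159375 and Celf2 NM_010160, while Rbm5 and Eif4a1 NM_144958 did not pass. The causes were not tested. Low signal limits 5 members whose lower group mean lay below the brightest negative control.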
